A study of Mus musculus with 6 samples.

Results

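The nuclear pore and nuclear transport receptor genes were taken by symbol: nucleoporins, importins (karyopherins), exportins, transportins and the Ran system. The table analysed held 55 of these genes among 8513 genes, with 112 transcripts among 15905. GENCODE has 64 protein-coding genes with such symbols, and the 9 others, among them Ranbp2, Ranbp6 and Ranbp17, were not analysed here. The cells were B16.F10, a wild-type mouse melanoma line, kept for 24 h either with no treatment (3 samples) or with 3.5 µM simvastatin (3 samples). Simvastatin is a statin, which blocks the enzyme that makes mevalonate. The labels call that concentration the IC50, name no vehicle for the control cells and give all 6 samples the same batch date. B16.F10 is 1 established line, so the groups describe cells in culture. The table gives 1 value per group and transcript, made by the authors from the samples of each group, so no spread between samples could be computed and the depth is unknown. Per gene, the values of its transcripts were summed here and are called the gene total. Neither the unit of the values nor any scaling for transcript length is given in the sources used here, so levels are compared between groups and not between genes. Melanocyte genes fitted the label: all 8 fixed markers were listed, with summed totals of 11465 with simvastatin and 8012 in control. Of the fibroblast (3), keratinocyte (2) and macrophage (3) markers only the macrophage marker Cd68 was listed, at 0.93 and 0.37.

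The nuclear pore complex is the gate through which RNA and proteins pass between nucleus and cytoplasm. Its outer and inner rings form the scaffold, membrane nucleoporins anchor it, nucleoporins with phenylalanine-glycine repeats fill the channel, and filaments on the cytoplasmic face and a basket on the nuclear face serve as docking sites. Importins and exportins carry cargo through it. The small GTPase Ran sets the direction: Rcc1 loads Ran with GTP on chromatin, RanGAP1 triggers GTP hydrolysis in the cytoplasm, and RanGTP releases cargo from importins and binds it to exportins. In dividing cells the pore is taken apart at mitosis and rebuilt, and outer ring nucleoporins and Ran also act at kinetochores and the spindle.

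Most of these genes had a lower total with simvastatin. The total was lower for 46 of 55 genes (83.6%), against 48.3% of all genes, and the median log2 ratio of totals (simvastatin over control) was -0.27, against 0.02 over all genes. The quartiles of the members were -0.45 and -0.08. Taking only the most abundant transcript of each gene, 36 of 55 were lower, with a median log2 ratio of -0.19. That count has no share of all genes beside it. The shifts were modest in size: 8 genes (14.5%) were at least 1.5-fold lower and 1 (1.82%) at least 1.5-fold higher, against 12.3% and 14.1% of all genes. Either way, 9 (16.4%) were at least 1.5-fold apart, against 26.4% of all genes. The members' share of lower totals was thus above that of all genes and their share of large ratios below it, with no test of either. The shares of large ratios were not matched for level: 3341 of the 8513 genes had a mean total under 10, against 7 of the 55 members. RNA from bulk cultures cannot tell fewer expressing cells from less RNA per cell. The authors' values sum to 344210 over all transcripts with simvastatin and 394749 in control. Dividing by these sums adds 0.20 to every log2 ratio, which puts the median of all genes at 0.22 and that of the members at -0.08. On that scale 32 members (58.2%) were lower, against 33.9% of all genes. Without the 1% of transcripts of highest mean value the added amount was 0.04. Genes of high total leaned lower in general: over the 492 genes with a mean total of at least 100, 65.4% were lower, with a median of -0.21. The 53 members below that level divided as 44 lower and 9 higher, and in the range from 10 to 30 the medians were -0.30 for 30 members and 0.05 for 3111 genes.

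**Figure D1:**
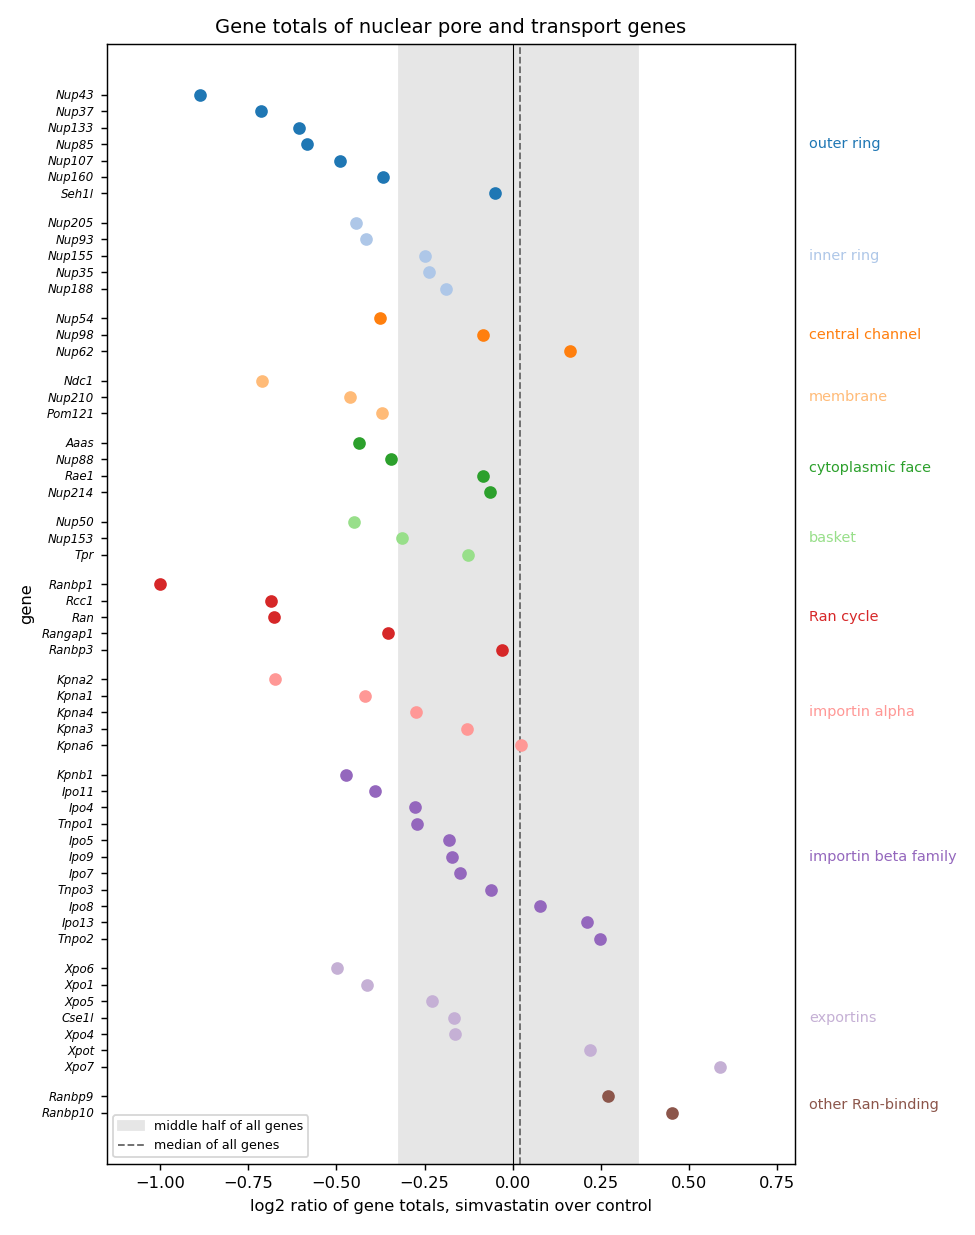
Log2 ratio of gene totals, simvastatin over control, for the 55 genes (y axis), grouped and coloured by role. The grey band runs between the quartiles of all genes (-0.32 and 0.35) and the dashed line their median (0.02); all outer ring and Ran cycle genes lie left of 0, from -0.05 to -0.89 and from -0.03 to -1.0.

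**Figure D2:**
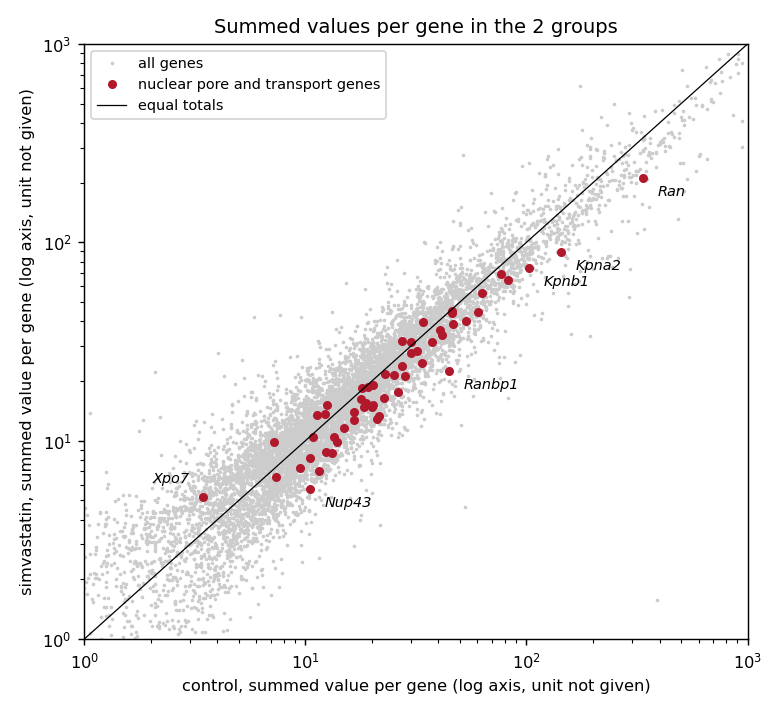
Gene totals in control (x axis) and with simvastatin (y axis), both log axes in the authors' unit, with all genes as grey dots, the members as red dots and the line of equal totals. The axes run from 1 to 1000 and genes beyond them are not drawn; 46 of 55 members lie below the line, with Xpo7 above it.

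By the authors' adjusted p under 0.05, 4 of 112 transcripts passed (3.57%), against 2.09% of all transcripts. On the lower side these were 3 (2.68%, against 0.987%), of Nup35, Nup50 and Nup93, and on the higher side 1 (0.893%, against 1.11%), of Cse1l. The Cse1l transcript counts as higher only by its sign, since its group values were 7.40 and 7.38 in the authors' deposited table. Whether the authors' test used the scale of the printed values is not given in the sources. At an unadjusted p under 0.05 in the authors' deposited table, 24 transcripts passed (21.4%, against 19.6%). Of these 19 were lower (17.0%, against 10.2%) and 5 higher (4.46%, against 9.42%). The authors' own yes or no call marked 7 transcripts (6.25%, against 9.5%), 5 lower (4.46%, against 4.37%) and 2 higher (1.79%, against 5.13%). In either direction the shares lay near the background, while at an unadjusted p the lower side held more of the members and the higher side fewer than of all transcripts. On the most abundant transcript of each gene, 2 of 55 passed the adjusted p (3.64%, against 3.15%), and 17 were lower at an unadjusted p under 0.05 (30.9%, against 14.9%).

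Of the role groups, the Ran cycle had the lowest median, and all 5 of its genes had lower totals (median log2 ratio -0.68, and -0.48 after division by the group sums, where 4 remained lower). No transcript of the 5 passed the adjusted p. Ran, the GTPase itself, had 2 transcripts, at 139 against 237 and at 72.3 against 99.9 per the authors' deposited table, at adjusted p values of 0.319 and 0.528. Both were lower, and the total was 211 with simvastatin and 337 in control. Ranbp1, a Ran-binding protein that works with RanGAP1 to release RanGTP in the cytoplasm, had 1 transcript at 22.4 against 44.7, a log2 ratio of -1.0, per the authors' deposited table, at an adjusted p of 0.092. It is the member with the lowest ratio and carries the authors' call. Rcc1, the exchange factor that charges Ran with GTP, had totals of 13.3 and 21.4 (log2 ratio -0.68), with both of its transcripts lower and adjusted p of 0.213 and 0.477 in the authors' deposited table. Rangap1, the GTPase-activating protein, had totals of 64.5 and 82.5, but its 3 transcripts went different ways: 1 was at 25.7 against 50.7, 1 at 32.8 against 30.8 and 1 at 6.04 against 1.04 in the authors' deposited table. Ranbp3, a cofactor of Xpo1, had near-equal totals of 45.1 and 46.0, with a log2 ratio of -0.03.

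Promoters are shown for Ranbp1, Rcc1 and Ran, the Ran cycle genes with the lowest ratios, and for Nup50, the gene with a single listed transcript that passed the adjusted p. Each runs from 250 bases before to 50 after the start site in RefSeq (GRCm38.p6), read 5′ to 3′ on the gene's strand: Ran at chr5:129019906-129020205 (plus strand), Ranbp1 at chr16:18248645-18248944 (minus), Rcc1 at chr4:132345701-132346000 (minus) and Nup50 at chr15:84923178-84923477 (plus). Capitals mark matches, on either strand, to the CCAAT box (CCAAT), the letters TTTGGCGC and TTTCCCGC of E2F-type sites, GCATGCGC of NRF1-type sites and TTTGAA of the cell cycle homology region.
Ran: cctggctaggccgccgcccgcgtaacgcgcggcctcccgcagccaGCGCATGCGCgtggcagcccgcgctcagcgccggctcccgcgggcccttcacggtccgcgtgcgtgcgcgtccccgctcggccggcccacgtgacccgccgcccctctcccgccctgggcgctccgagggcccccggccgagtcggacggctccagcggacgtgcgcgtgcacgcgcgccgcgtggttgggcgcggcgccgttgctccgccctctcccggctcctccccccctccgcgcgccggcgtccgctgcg
Ranbp1: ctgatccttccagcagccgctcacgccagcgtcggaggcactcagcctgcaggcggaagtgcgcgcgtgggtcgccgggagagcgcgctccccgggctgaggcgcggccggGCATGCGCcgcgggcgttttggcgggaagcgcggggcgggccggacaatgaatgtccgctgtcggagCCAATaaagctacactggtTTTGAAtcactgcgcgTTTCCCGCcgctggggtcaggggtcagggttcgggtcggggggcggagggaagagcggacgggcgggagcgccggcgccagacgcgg
Rcc1: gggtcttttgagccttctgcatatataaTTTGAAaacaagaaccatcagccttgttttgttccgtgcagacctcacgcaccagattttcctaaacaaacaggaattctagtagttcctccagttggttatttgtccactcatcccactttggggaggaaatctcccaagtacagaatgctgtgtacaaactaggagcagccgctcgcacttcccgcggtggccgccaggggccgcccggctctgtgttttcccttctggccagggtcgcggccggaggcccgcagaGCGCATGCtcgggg
Nup50: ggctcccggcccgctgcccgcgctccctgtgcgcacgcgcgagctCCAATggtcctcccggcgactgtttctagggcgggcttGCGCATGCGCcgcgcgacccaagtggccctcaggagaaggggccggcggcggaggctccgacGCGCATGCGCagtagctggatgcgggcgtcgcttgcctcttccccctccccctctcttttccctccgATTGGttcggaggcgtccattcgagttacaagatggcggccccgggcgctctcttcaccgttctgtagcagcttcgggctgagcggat
The Ranbp1 window holds a CCAAT box, TTTGAA and TTTCCCGC within a short stretch before the start site. In the windows of Ran and Nup50 the GCATGCGC matches of both strands overlap, so that the capitals read the same on either strand. The windows shown are a chosen few, and the shares below are those of all members with a window. RefSeq windows were matched for 43 of the 55 genes and for 6092 genes of the table. CCAAT was found for 20 of 43 (46.5%), against 43.5% of genes of the table, and the GC box letters GGGCGG for 32 (74.4%, against 73.1%). GCATGCGC was found for 7 (16.3%, against 7.04%), namely Ran, Ranbp1, Rcc1, Nup50, Nup62, Nup107 and Xpo5. These letters were settled on after a longer form had been searched, the overlap of both strands, which 5 of these genes hold (11.6%, against 2.69%). TTTGAA was found for 12 (27.9%, against 14.2%). TTTCCCGC was found for 2, Ranbp1 and Nup210 (4.65%, against 2.58%), and TTTGGCGC for 0, against 1.28%. Over all 27025 RefSeq genes with a window the shares were 41.1% for CCAAT, 38.2% for GGGCGG, 3.05% for GCATGCGC, 20.2% for TTTGAA, 1.24% for TTTCCCGC and 0.585% for TTTGGCGC. Of the 12 genes with TTTGAA 11 had a lower total, near the 37 of 43 among all members with a window. These are matches of letters, and binding was not measured.

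The outer ring is the Y-shaped complex that forms the pore's scaffold on both faces. All 7 of its genes taken by symbol had lower totals (median log2 ratio -0.58). After division by the group sums 6 stayed lower, with a median of -0.39. Sec13 and Ahctf1, which also belong to this complex, lie outside the symbol rule. Their totals were not lower, at 97.2 against 94.2 and at 13.87 against 13.84. Nup43, a peripheral subunit, had values of 5.70 and 10.5, a log2 ratio of -0.89, per the authors' deposited table, at an adjusted p of 0.128. Nup37, another peripheral subunit, had totals of 7.01 and 11.5 over 3 transcripts, all 3 of them lower. Nup133, at the tip of the stem, had values of 8.67 and 13.2 and Nup160, of the arm, 10.4 and 13.4 per the authors' deposited table, at adjusted p values of 0.072 and 0.064. Nup85, of the other arm, had 17.5 and 26.25 per the authors' deposited table, at an adjusted p of 0.134. Nup107, the stem partner of Nup133, had totals of 8.79 and 12.35. Seh1l, which the outer ring shares with a regulator of amino acid signalling at lysosomes, was nearly level at 18.6 and 19.3. None of the 10 transcripts of the 7 genes passed the adjusted p, while 4 were lower at an unadjusted p under 0.05, against 10.2% of all transcripts. Those of Nup43 and Nup133 carry the authors' call, against 4.37% of all transcripts on the lower side.

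In the inner ring, which lines the pore membrane and holds the channel nucleoporins, all 5 genes had lower totals (median log2 ratio -0.25), and after division by the group sums 4 did, with a median of -0.05. The main transcript of Nup35, a membrane-binding subunit (chromosome 2, 80617236 to 80658906 in GRCm38), fell 1.40-fold from 29.0 to 20.8 per the authors' deposited table, at an adjusted p of 0.038. It holds 72.4% of the gene's summed mean value. The 2 other Nup35 transcripts were at 7.22 against 5.93 and 3.54 against 2.29, which left totals of 31.55 and 37.2, a log2 ratio of -0.24. Nup205, a large scaffold subunit, had totals of 44.4 and 60.3 and the largest difference of this ring, a log2 ratio of -0.44, with no transcript past an unadjusted p of 0.05. Nup155 and Nup188, the other large subunits, had totals of 13.9 and 16.5 and of 23.9 and 27.2.

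Nup93, the linker of the inner ring (chromosome 8, 94214564 to 94317227), showed 2 transcripts that traded places. A transcript assembled from reads fell from 14.8 to a listed value of 0 per the authors' deposited table, at an adjusted p of 0.042 and with the authors' call. The Ensembl transcript ENSMUST00000079961 went the other way, from 0.92 to 14.5 per the authors' deposited table, at an adjusted p of 0.235. Together these 2 summed to 14.5 with simvastatin and 15.7 in control, a log2 ratio of -0.12. Another protein-coding transcript, ENSMUST00000109547, stood at 5.17 against 8.77 and a retained intron, ENSMUST00000212039, at 1.45 against 3.68. The gene total was 21.1 against 28.2, a log2 ratio of -0.42. Nup93 is therefore 1 of the members whose direction depends on the rows used: with Ensembl transcripts only the log2 ratio was 0.66, and on its most abundant transcript 3.98. In GENCODE, ENSMUST00000079961 and ENSMUST00000109547 have identical coding exons (2457 bases) and start 13097 bases apart, so both encode the same protein.

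The central channel genes differed among themselves. Nup54, of the channel's inner core, had totals of 7.30 and 9.48, a log2 ratio of -0.38, from a transcript at 0.83 against 6.19 and an assembled one at 6.47 against 3.29 in the authors' deposited table. Nup98, which also binds mRNA export factors, had totals of 21.7 and 23.0, and Nup62, the hub of the channel, 13.7 and 12.2. Their median log2 ratio was -0.08, and it turned to 0.11 after division by the group sums and to 0.16 on most abundant transcripts. All 3 membrane nucleoporins had lower totals, also after that division (median -0.46 and -0.26). Ndc1, which anchors the pore in the nuclear envelope, had values of 12.8 and 20.99, a log2 ratio of -0.71, per the authors' deposited table, at an adjusted p of 0.089 and with the authors' call. Nup210 had totals of 16.5 and 22.7 over 4 transcripts and Pom121, which recruits other subunits early in assembly, 11.6 and 15.0. On the cytoplasmic face, 4 of 4 genes had lower totals (median -0.21), of which 2 stayed lower after division by the group sums. Aaas, which encodes aladin, had totals of 14.8 and 20.01, Nup88 8.23 and 10.45, and Nup214, the binding platform of the cytoplasmic filaments, 10.4 and 10.9. Rae1, an mRNA export factor that also works at the spindle, had values of 19.1 and 20.2 per the authors' deposited table, at an adjusted p of 0.179.

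In the nuclear basket, Nup50, which speeds the release of cargo from importins (chromosome 15, 84923411 to 84942963), fell 1.37-fold from 33.5 to 24.5 per the authors' deposited table, at an adjusted p of 0.038. It has 1 listed transcript, so its fold is that of the gene total. Nup50 is also the 1 member among the 158 genes of the authors' comparison with human A375 melanoma cells. There its log2 fold change was -0.44 in the authors' deposited table, which differs from the log2 ratio of the group values, -0.45, and is close to the ratio after adding 1 to each, -0.44. The z-score of A375 cells given 10 µM simvastatin was -1.30 in the authors' deposited table. No share of the 158 genes on the lower side is given beside it, so this 1 value is not read as agreement between the lines. Nup153, which docks importins at the basket, had values of 14.9 and 18.5 per the authors' deposited table, at an adjusted p of 0.213, and Tpr, the fibre of the basket, totals of 27.6 and 30.1. All 3 basket genes thus had lower totals, of which 2 stayed lower after division by the group sums.

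Importin alpha proteins recognise nuclear localisation signals and bind the carrier importin beta. Of their 5 genes 4 had lower totals (median log2 ratio -0.27), of which 3 stayed lower after division by the group sums. Kpna2, a form that is abundant in proliferating cells, had totals of 89.8 and 143, a log2 ratio of -0.67. Most of that difference lay in a transcript annotated for nonsense-mediated decay, at 0.03 against 42.2 per the authors' deposited table, at an adjusted p of 0.571. Its protein-coding transcript was at 89.8 against 101.2 per the authors' deposited table, at an adjusted p of 0.748, a log2 ratio of -0.17. Kpna4 had values of 38.7 and 46.7 and Kpna1 15.2 and 20.3 per the authors' deposited table, at adjusted p values of 0.167 and 0.637, while Kpna3 stood at 16.3 and 17.8 and Kpna6 at 18.4 and 18.1.

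Of the 11 genes of the importin beta family 8 had lower totals (median log2 ratio -0.17). After division by the group sums 4 did, with a median of 0.03. On that scale 33.9% of all genes were lower, with a median of 0.22. Kpnb1, importin beta itself, had the largest difference, with values of 74.2 and 103, a log2 ratio of -0.47, per the authors' deposited table, at an adjusted p of 0.089. Ipo7, a carrier of ribosomal proteins and histones, had totals of 69.4 and 77.1, and Ipo5, of a similar cargo range, 55.7 and 63.1. One assembled Ipo5 transcript was listed at 0 in control and at 9.14 with simvastatin, while the most abundant one was at 30.9 against 44.8 per the authors' deposited table, at adjusted p values of 0.748 and 0.813. That most abundant transcript is annotated as non-coding, and the protein-coding Ipo5 transcript was at 12.5 against 16.6. Ipo11 had values of 12.7 and 16.65 and Tnpo1, the receptor of many RNA-binding proteins, 34.3 and 41.4 per the authors' deposited table, at adjusted p values of 0.110 and 0.183. Tnpo3, which imports splicing factors, had totals of 44.0 and 45.9 from 3 transcripts that ranged from 8.60 against 20.2 to 27.2 against 18.6. Ipo4 had totals of 15.6 and 18.9 and Ipo9 28.4 and 31.9. The 3 genes with higher totals were Tnpo2 (13.4 and 11.3), Ipo13 (31.8 and 27.5) and Ipo8 (31.6 and 29.98). In Tnpo2 the higher transcript was a retained intron, at 10.4 against 6.77. Its assembled transcripts were lower, at 1.73 against 2.37 and 1.32 against 2.16.

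Exportins were mixed. Of 7 genes 5 had lower totals (median log2 ratio -0.17). After division by the group sums 3 did, with a median of 0.03. On that scale 33.9% of all genes were lower, with a median of 0.22. On the most abundant transcript of each exportin gene the median was 0.34. That transcript was lower for Xpo1 (log2 ratio -0.33) and higher for all the others, Xpo5 (0.23) and Xpo6 (0.34) among them. Xpo1, the receptor of proteins with leucine-rich export signals, had totals of 40.0 and 53.3, and its main transcript stood at 39.9 against 50.1 per the authors' deposited table, at an adjusted p of 0.089. Xpo6, the exportin of actin, had totals of 9.85 and 13.9 over 4 transcripts, none with an unadjusted p under 0.05. Xpo5, the exportin of microRNA precursors, had totals of 21.5 and 25.2. Xpot, which exports transfer RNA, had higher totals, 39.6 against 34.1. Xpo7 had the highest ratio of all 55 genes, with totals of 5.18 and 3.45 (log2 ratio 0.59). That difference came from an assembled transcript at 5.11 against 2.33, while its Ensembl transcript was at 0.07 against 1.12 per the authors' deposited table, at adjusted p values of 0.178 and 0.624.

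Cse1l, the exportin that returns importin alpha to the cytoplasm (chromosome 2, 166906040 to 166946389), had 5 transcripts and near-equal totals of 36.2 and 40.6 (log2 ratio -0.17, and 0.03 after division by the group sums). The full-length protein-coding transcript was at 0.08 against 14.2 and an assembled one at 16.2 against 3.34 per the authors' deposited table, at adjusted p values of 0.234 and 0.110, and their sums were 16.3 and 17.55. Another assembled transcript was at 3.01 against 8.90, and with it the sums were 19.3 and 26.45, a log2 ratio of -0.45. A transcript annotated for nonsense-mediated decay was at 9.47 against 6.79. A non-coding transcript of 708 bases had values of 7.40 and 7.38, a fold of 1.0, at an adjusted p of 0.042 in the authors' deposited table. That is the smallest fold among the 333 transcripts past the adjusted p, and the next smallest was 1.07. The other Ran-binding protein genes were both on the higher side. Ranbp9 and Ranbp10, related scaffold proteins that belong to a ubiquitin ligase complex and are no transport receptors, had values of 15.1 and 12.5 and of 9.85 and 7.21 per the authors' deposited table, at adjusted p values of 0.464 and 0.301.

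**Figure D3:**
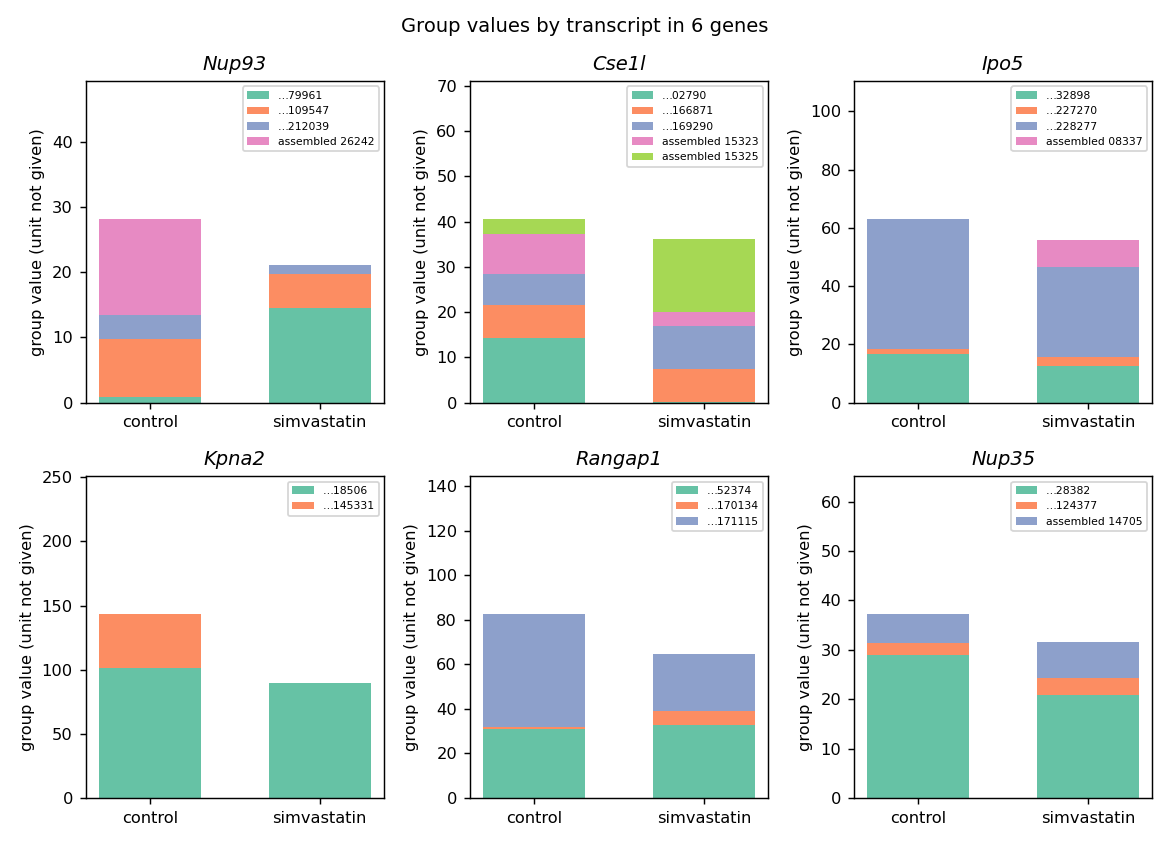
Group values of each listed transcript, stacked to the gene total, in control and simvastatin for 6 genes; the legend gives the end of the Ensembl identifier or the number of the assembled model, and the bars carry no error because there is 1 value per group. In Nup93 and Cse1l single transcripts go from near 0 to much of the bar or the reverse, while the totals in control and with simvastatin are 28.2 and 21.1 and 40.6 and 36.2.

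Large folds were a matter of single transcripts and seldom of genes. Of the 112 transcripts 31 (27.7%) had group values at least 2-fold apart, against 26.7% of all transcripts, in 23 genes. Of these 23 genes only Ranbp1 had totals at least 2-fold apart, 1 of 55 (1.82%), against 10.1% of all genes, shares not matched for level. Of the 31 transcripts 10 held under 10% of their gene's summed mean value, against 1182 of 4253 in the table. An unadjusted p under 0.05 was given for 6 of the 31, near the share of all such transcripts, 881 of 4253. In 5 genes a transcript was listed under 0.05 in a group: Nup93, Kpna2, Ipo5, Xpo4 and Nup210. Xpo4, an exportin with several known cargoes, shows the pattern on a small scale. Its Ensembl transcript went from 3.02 to a listed 0 and its assembled one from 4.38 to 6.60 per the authors' deposited table, at adjusted p values of 0.604 and 0.715, for totals of 7.40 and 6.60.

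**Figure D4:**
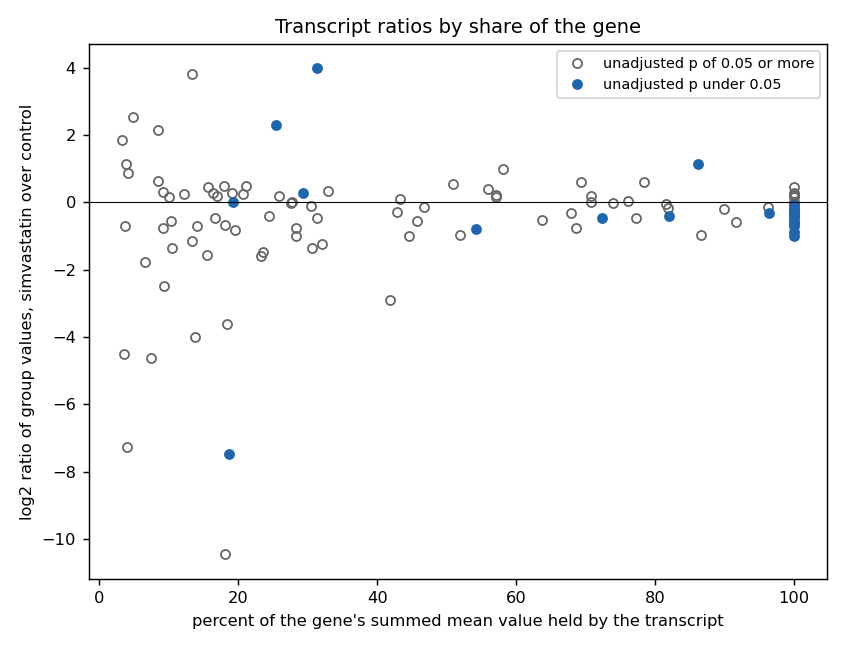
Log2 ratio of group values (y axis) against the percent of its gene's summed mean value that the transcript holds (x axis), for member transcripts with both values above 0; the 3 listed at 0 in a group (Nup93, Xpo4 and Ipo5) are not drawn. Blue points have an unadjusted p under 0.05; transcripts that hold the whole gene lie between -1.0 and 0.45, while those under 20% reach 3.80 (Nup107) and -10.46 (Kpna2).

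The genes with a single listed transcript cannot show this trading between listed transcripts, while transcripts that are not listed remain unseen. There were 23 of them, and 18 had lower values (median log2 ratio -0.31), against 2272 of the 4535 such genes of the table. This subset of genes with 1 listed transcript was not among the planned comparisons. An unadjusted p under 0.05 was found for 13 of 23, all of them lower (56.5%), against 19.4% of genes with 1 transcript on that side. In either direction the shares were 56.5% and 37.2%. Over the 89 transcripts of the 32 other members the share was 12.4%, against 12.6%. The 13 were Ranbp1, Ndc1, Nup133, Nup160, Nup43, Nup85, Nup50, Nup153, Rae1, Kpnb1, Kpna4, Ipo11 and Tnpo1.

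**Figure D5:**
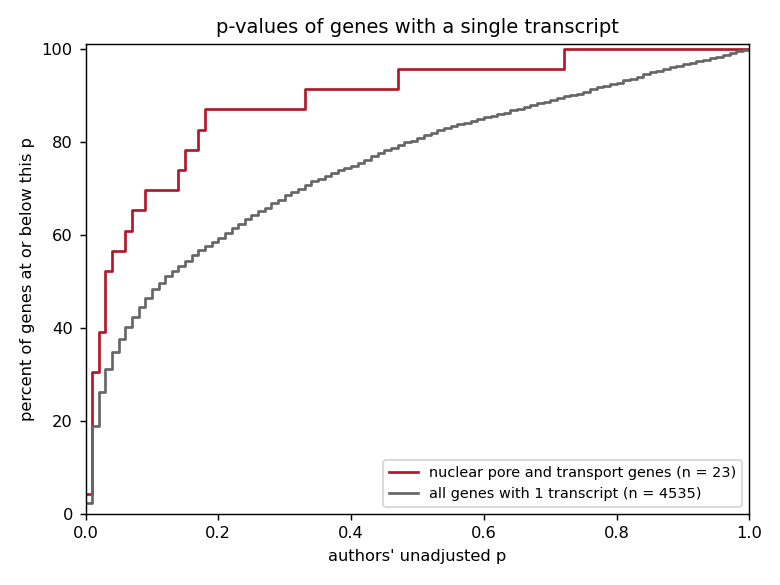
Percent of genes (y axis) whose unadjusted p in the authors' deposited table is at or below the value on the x axis, for the 23 members with 1 listed transcript (red) and all 4535 such genes (grey). At a p of 0.05 the curves stand at 56.5% and 37.5%, and at 0.2 at 87.0% and 59.3%.

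The authors' enrichment lists carry 7 members, the same number of genes as have the authors' call. Nup43 stands under 8 terms of the lower genes, Nup133 under 4, Ranbp1 under 3 and Ndc1 under 2, in the authors' deposited table. Cse1l stands under 6 terms of the higher genes and Xpo7 under 4, in the authors' deposited table. Nup93 stands under 4 terms of the higher genes there, among them protein transport, although its 1 called transcript is the one listed at 0 with simvastatin and its total was lower. Cse1l, too, is placed among higher genes by 1 called transcript while its total was 36.2 against 40.6. No member appeared in the authors' network or their table of aggressiveness genes.

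Other genes of nuclear transport and mRNA export, from a list of 43 of which 30 were present, leaned the same way. Their totals were lower for 23 of 30 (median log2 ratio -0.23), and for 16 after division by the group sums, against 48.3% and 33.9% of all genes. None of their 71 transcripts passed the authors' adjusted p, while at an unadjusted p under 0.05 in the authors' deposited table, lower ones numbered 11 and higher ones 1, against 10.2% and 9.42% of all transcripts. Rcc2, a relative of Rcc1 that acts at centromeres, had totals of 194 and 231. The list also holds pore genes outside the symbol rule, among them Sec13 and Ahctf1 of the outer ring, whose totals were not lower. Nupl1 (Nup58), of the central channel, was at 13.2 against 15.0. Named after their values were seen, the 4 transcripts with the authors' call, all lower (against 4.37% of all transcripts on that side), were 2 of Ddx39 and 1 of Ddx39b, RNA helicases of mRNA export, and 1 of Nutf2, which imports Ran. The totals were 32.8 and 63.8 for Ddx39, 39.0 and 49.55 for Ddx39b, and 12.5 and 13.5 for Nutf2. The called Nutf2 transcript held 28.4% of its gene's summed mean value, and the most abundant one was higher, at 7.98 against 5.76. The called Ddx39b transcript held 15.1%, and the most abundant one was at 23.2 against 24.2. Proliferation genes were lower beside the members: all 15 of a fixed list had lower totals (median log2 ratio -1.01, from -1.16 to -0.67), also after division by the group sums, with summed totals of 670 and 1254. In that list 11 of 38 transcripts fell past the adjusted p, against 0.987% of all transcripts. Their part in the members' lower totals was not tested.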

How the data were processed

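RNA of 6 samples, grouped by their titles, had been sequenced from stranded total RNA libraries, per the labels' protocols. The submitters' processing notes name HISAT2 2.0.5, StringTie and the build GRCm38 (mm10). Neither the counting nor the low-value filter nor the test is given in the sources used here. Per the file headers, the authors deposited 1 signal value per group and transcript, a signed fold score, p-values and adjusted p-values printed to 3 decimals, and a call; the human comparison holds log2 fold changes and a z-score of an outside signature, deposited by the authors. Depth per sample is unknown, and no test was refitted. The series text calls the samples biological replicates; what spread the p-values measure is not known without the test. The authors' adjusted p under 0.05 over all transcripts was the threshold.

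Group values were summed per gene and ratios taken (Python 3.11.15, pandas 2.3.3, numpy 2.4.6), which was tested on simulated data. Coordinates and transcript types are from GENCODE mouse release 21, which held all 86 Ensembl transcripts of the members; 26 were assembled models. The naming rule took members past the threshold or with the authors' call, the 10 of highest total, the 5 largest differences each way, the Ran cycle, all Nup93 transcripts and the top genes of each role; the remaining members are named too, so that all 55 have values. One gene of the wider transport list that the rule took is not reported here. The members, role groups and lists were chosen with earlier results of these data known. Alternatives were other thresholds, group-sum scaling, Ensembl transcripts only, most abundant transcripts and, chosen after seeing the data, scaling without the top transcripts, centring, and leaving out genes with a near-zero transcript.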

Additional observations from a re-analysis of the deposited data

How the results depend on the processing

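No paired analysis was possible because the table holds 1 value per group, and for the same reason leaving out a replicate was not run. Of 103 values recomputed under an alternative, 66 stayed within 1.5 times and on the same side, 26 moved further and 11 changed sign. Lower transcripts numbered 5 with the authors' call, 19 at an unadjusted p under 0.05 and 9 at an adjusted p under 0.1, against 3; higher ones numbered 2 and 5 by the first 2 rules, against 1. Counting every transcript in place of the most abundant one gave 4 past the threshold, against 2. Division by the group sums moved the median log2 ratio of members to -0.0756, of their most abundant transcripts to 0.0071, of the outer ring to -0.39, inner ring -0.0515, central channel 0.11, membrane -0.26, cytoplasmic face -0.0162, basket -0.12, importin alpha -0.0756, importin beta family 0.0266, exportins 0.031 and other Ran-binding genes 0.56. This follows from adding 0.20 to each ratio, which puts the median of all genes at 0.22. On most abundant transcripts the medians were 0.16 for the central channel, -0.17 for importin alpha and 0.34 for exportins. Only some genes were recomputed singly. Of those, the ones that changed sign were Nup93 (3.98 on its most abundant transcript, 0.66 with Ensembl transcripts only), Cse1l (0.031 after division, 2.28 on its most abundant transcript) and Xpo7 (-4.00 with Ensembl transcripts only). In other members a lower total stood beside a higher most abundant transcript. Its log2 ratio was 0.98 in Nup54, 0.59 in Xpo4, 0.55 in Tnpo3, 0.40 in Nup214, 0.34 in Xpo6, 0.23 in Xpo5, 0.16 in Ranbp3 and 0.04 in Tpr.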
